A study of Mus musculus with 6 samples.

Results

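Endothelial marker genes and the Wnt and R-spondin genes of the liver vessel wall were followed through RNA-seq libraries of sorted mouse hepatocytes. The 10 genes were given by name and matched by symbol, and all 10 had a row among the 17275 genes of the count table. They are the endothelial markers Stab2, Stab1, Aqp1, Gata4, Pecam1, Kdr and Clec4g, and the niche ligands Wnt2, Wnt9b and Rspo3. Libraries came from C57BL/6 mice of genotype Axin2rtTA;TetO-H2B-GFP, in which the Axin2 promoter drives a doxycycline-dependent activator and cells with that promoter active make a nuclear green fluorescent protein. All mice drank doxycycline for 7 days, and their age is given as 8 weeks in the protocol and as postnatal day 63 in the sample labels. Non-parenchymal cells were removed before the sort, and 3 libraries of fluorescent hepatocytes (labelled Axin2-positive) were set against 3 of non-fluorescent hepatocytes (labelled Axin2-negative) from the same reporter genotype. Replicate numbers 1, 2 and 3 stand for the sequencing index that 1 library of each group shares. The comparison asks how much endothelial and niche ligand RNA the hepatocyte sorts held, and whether it differed between the 2 sorted fractions.

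Sinusoidal endothelial cells line the capillaries of the liver lobule and clear macromolecules from blood through scavenger receptors. Endothelial cells at and near the central vein are known as a source of Wnt ligands and of Rspo3, which keep β-catenin targets such as Axin2 and Glul active in the adjoining hepatocytes. Hepatocytes are not known as the main source of these ligands, so reads of the 10 genes in a hepatocyte sort are read here only as levels in the library.

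Libraries held 77994792 to 103386648 reads assigned to genes when labelled Axin2-positive and 75882611 to 101814611 when labelled Axin2-negative. Axin2, whose promoter drove the sort, had 233, 1781 and 2080 reads in libraries labelled Axin2-positive 1, 2 and 3, and 291, 301 and 504 reads in those labelled Axin2-negative 1, 2 and 3. In the pair of replicate 1, then, Axin2 is lower under the positive label, and Glul, the glutamine synthetase gene of central hepatocytes, was even (8551 against 8411 reads). The libraries of that pair also resembled each other far more than any other 2 libraries did, with a chi-square per gene of 4.57 against 313 or more. Both libraries of replicate 2 carried Y-linked Ddx3y (7164 reads in the library labelled Axin2-positive and 6759 in the one labelled Axin2-negative), against at most 3 reads in each of the other 4. Index and the sex read from Ddx3y thus cannot be told apart in what follows. Nothing in the labels ties each library to a mouse of its own, and p-values here measure the spread between libraries, which may be technical.

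The 6 endothelial markers other than Gata4 had reads in every library, with 170 to 2051 reads in replicates 1 and 3 and only 3 to 221 in both fractions of replicate 2. Stab2, a scavenger receptor gene that marks sinusoidal endothelium (chromosome 10, 86841198 to 87008025, GRCm38), had 1722, 80 and 1331 reads in libraries labelled Axin2-positive 1, 2 and 3. Stab2 reads numbered 1537, 221 and 1832 in those labelled Axin2-negative 1, 2 and 3. The groups overlapped, and the low libraries were those of replicate 2 in either group. Stab2 stood at 11.4 ± 9.07 CPM (read counts scaled to a common library size) in libraries labelled Axin2-positive and 13.2 ± 9.39 CPM in those labelled Axin2-negative (SD, n = 3 each).

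Stab1, the related scavenger receptor gene (chromosome 14, 31139013 to 31168641), had 692, 39 and 667 reads in libraries labelled Axin2-positive 1, 2 and 3, and 683, 78 and 881 in those labelled Axin2-negative. Clec4g, a sinusoidal endothelial lectin gene (chromosome 8, 3707064 to 3720651), had 716, 3 and 563 reads against 659, 27 and 792. Its 3 reads in the library labelled Axin2-positive 2 carry an exact Poisson 95% interval of 0.619 to 8.77 reads. Intervals on reads cover counting error only, since reads of amplified libraries are not independent molecules. Kdr, which encodes VEGF receptor 2 (chromosome 5, 75932827 to 75978458), had 795, 8 and 781 reads in libraries labelled Axin2-positive 1, 2 and 3, and 747, 43 and 1140 in those labelled Axin2-negative. Pecam1, a junction protein gene of all endothelium (chromosome 11, 106654217 to 106750628), had 193, 6 and 170 reads against 173, 4 and 244. Aqp1, a water channel gene of endothelium that bile duct cells also express (chromosome 6, 55336432 to 55348555), had 1303, 8 and 1355 reads against 1306, 69 and 2051. In each of these genes the libraries of replicate 2 lay below the other 4 whichever fraction they came from. In bulk RNA, fewer endothelial cells and less of an endothelial transcript per cell cannot be told apart.

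Gata4 did not follow the other endothelial markers. It encodes a GATA transcription factor of sinusoidal endothelium that also takes part in early liver development (chromosome 14, 63198922 to 63271692). The libraries labelled Axin2-positive 1, 2 and 3 held 2009, 1468 and 957 Gata4 reads, and those labelled Axin2-negative held 2053, 1508 and 863. Its level was 16.8 ± 5.02 CPM in libraries labelled Axin2-positive and 16.7 ± 6.08 CPM in those labelled Axin2-negative (SD, n = 3 each), and replicate 3, not replicate 2, was lowest. Of the 7 endothelial markers, Gata4 alone was not low in replicate 2. The mean CPM of replicates 1 and 3 over that of replicate 2 was 0.844 for Gata4. For the other 6 markers it ran from 9.32 for Stab2 to 39.9 for Clec4g. Which cells the Gata4 reads came from was not tested.

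**Figure D1:**
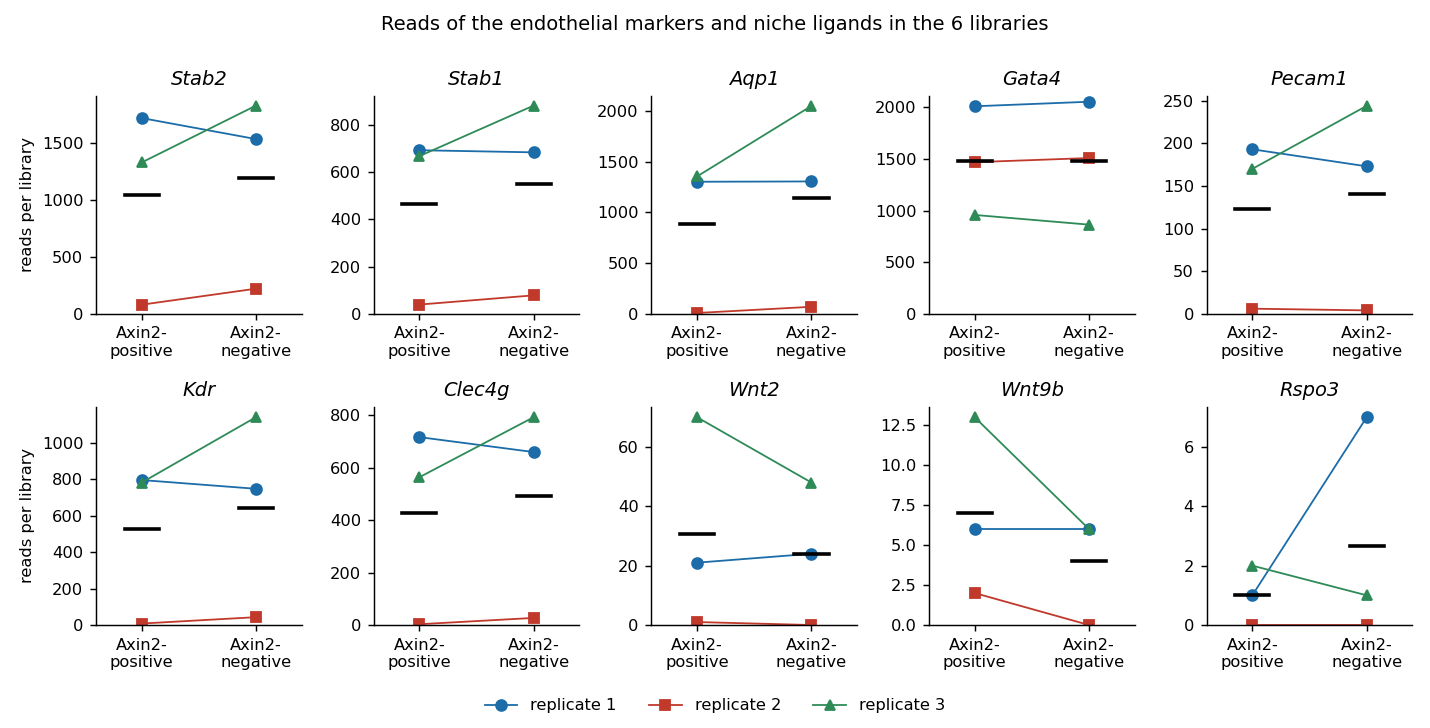
Reads of each of the 10 genes (vertical axes, reads per library, not scaled for depth) in libraries labelled Axin2-positive (left) and Axin2-negative (right). Lines join libraries of the same replicate number and black bars mark group means. Replicate 2 lies near 0 for every gene but Gata4, as for Stab2 with 80 and 221 reads, while Gata4 holds 1468 and 1508 reads there.

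Across all 6 libraries none of these genes passed the test between fractions. With edgeR's quasi-likelihood test on group alone, the log2 fold change was -0.21 (SE 1.09) for Stab2, -0.24 (SE 1.12) for Stab1, -0.22 (SE 1.58) for Clec4g and -0.30 (SE 1.49) for Kdr. It was -0.20 (SE 1.44) for Pecam1, -0.37 (SE 1.57) for Aqp1, 0.01 (SE 0.35) for Gata4 and 0.38 (SE 1.61) for Wnt2, and each had a Benjamini-Hochberg adjusted p of 0.999. edgeR called 0 of the 8 tested members, and 0 at an unadjusted p under 0.05, against a background of 0% of 12343 genes called higher and 0% called lower. DESeq2 and limma-voom also called 0 members. The groups of no tested member were free of overlap, where 3.44% of all tested genes lay wholly higher and 3.77% wholly lower in libraries labelled Axin2-positive.

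Because libraries that share an index resembled each other, a second fit took replicate as a block. Its standard errors were smaller, 0.29 for Stab2 and 0.08 for Gata4, and it too called 0 members. The log2 fold change in the blocked fit was -0.50 for Stab2 (edgeR adjusted p = 0.469), -0.39 for Stab1 (0.453), -0.73 for Aqp1 (0.486) and -0.59 for Kdr (0.499). For Clec4g it was -0.55, for Pecam1 -0.07, for Gata4 0.04 and for Wnt2 0.30. With the block kept and a whole pair left out, the log2 fold change of Stab2 was -0.83 without replicate 1, -0.14 without replicate 2 and -0.59 without replicate 3. Stab1, Aqp1, Kdr and Clec4g likewise stayed below 0 and Wnt2 above 0 in those 3 fits, while Pecam1 (0.28) and Gata4 (-0.033) turned without replicate 3. In fits with no block, leaving out 1 library, which also leaves its partner unmatched, could turn the direction. Without the library labelled Axin2-positive 2 the log2 fold change became 0.33 for Stab2, 0.30 for Stab1, 0.21 for Aqp1, 0.28 for Kdr, 0.36 for Clec4g and 0.36 for Pecam1. Without the library labelled Axin2-negative 3 it became 0.28, 0.34, 0.43, 0.48, 0.37 and 0.54 for the same genes in that order. For Stab2 it became -0.68 when the library labelled Axin2-positive 1 was left out and -0.50 when Axin2-positive 3 was. Without both libraries of replicate 1 and with the block, edgeR called 0 members, where it called 3.43% of 12385 genes higher and 4.01% lower, and the lowest adjusted p of a member was 0.108, for Stab2. At an unadjusted edgeR p under 0.05 that fit had 2 of 8 members lower, Stab2 (0.0185) and Stab1 (0.0361), and 0 higher. Of all 12385 genes, 1720 were lower and 1636 higher at that level. Without the library labelled Axin2-positive 1 and with no block edgeR called 0 members, against 0.00796% of genes higher and 0.0398% lower.

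Within the pairs, the endothelial markers took 3 patterns, given here as folds of CPM in the library labelled Axin2-positive over its Axin2-negative partner with exact 95% counting intervals. These intervals compare 2 libraries, not the conditions. In replicate 1 the fold was 1.10 for Stab2 (1.03 to 1.18), 0.998 for Stab1 (0.896 to 1.11), 0.982 for Aqp1 (0.909 to 1.06), 1.05 for Kdr (0.947 to 1.16) and 1.07 for Clec4g (0.961 to 1.19). That pair was thus almost even. In replicate 3 the library labelled Axin2-positive held less of all 6 genes, with folds of 0.741 for Stab2 (0.690 to 0.796), 0.772 for Stab1 (0.697 to 0.855), 0.674 for Aqp1 (0.629 to 0.722), 0.699 for Kdr (0.637 to 0.766), 0.725 for Clec4g (0.650 to 0.809) and 0.711 for Pecam1 (0.581 to 0.868). No interval of these 6 reached 1. In replicate 2 the few remaining reads lay mostly in the library labelled Axin2-negative, with folds of 0.369 for Stab2 (0.282 to 0.478), 0.509 for Stab1 (0.337 to 0.757), 0.118 for Aqp1 (0.0490 to 0.246), 0.189 for Kdr (0.0769 to 0.408) and 0.113 for Clec4g (0.0220 to 0.368). Pecam1, with 6 and 4 reads, gave 1.53 (0.362 to 7.36). Past a fold of 2, 4 of 8 tested members were lower in replicate 2, where 6.51% of all tested genes were, and 0 of 8 in replicate 3 (4.99% of all tested genes) and in replicate 1 (0.47%). These counts add an offset of 0.05 CPM to both libraries, and with 0.5 CPM only 2 of the 8, Stab2 (log2 difference -1.10) and Aqp1 (-1.18), were past that fold in replicate 2. No tested member was higher past it, with the offset of 0.05 CPM, in replicate 2 (3.41% of all tested genes), replicate 3 (2.41%) or replicate 1 (0.275%).

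**Figure D2:**
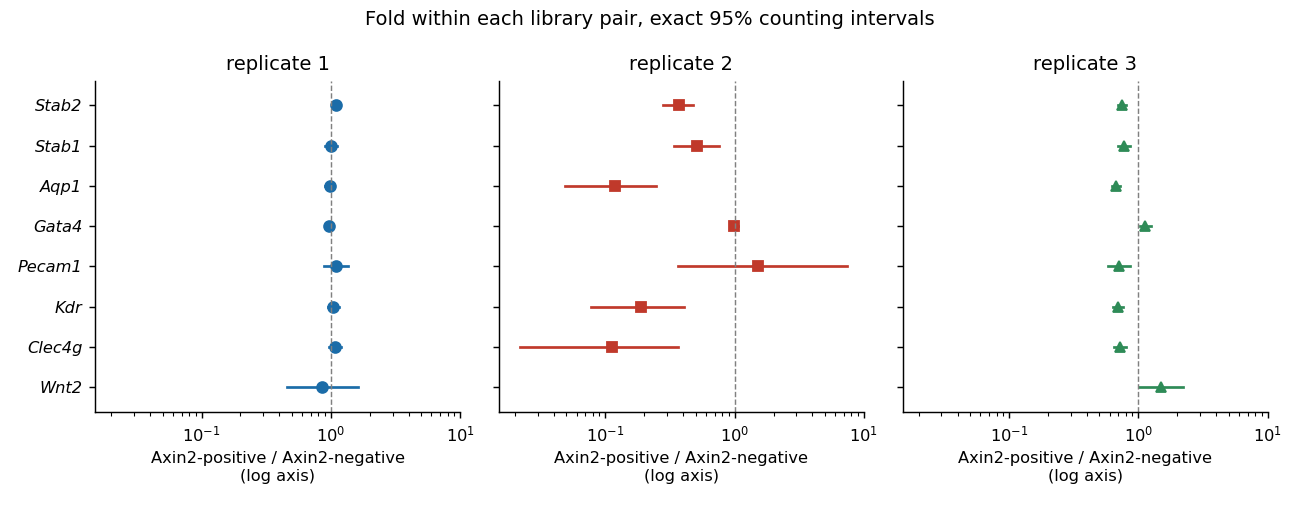
Fold of CPM in the library labelled Axin2-positive over the library labelled Axin2-negative of the same replicate (horizontal log axes) for the 8 genes tested. Bars are exact 95% counting intervals and the dashed line marks a fold of 1. Replicate 1 sits at the line, replicate 3 slightly below it for the 6 markers (0.674 to 0.772) and replicate 2 furthest below it for 5 of the 6, down to 0.113 for Clec4g. Pecam1 differs, at 1.53 (0.362 to 7.36) in replicate 2. Wnt2 has no finite fold in replicate 2.

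Promoters of 4 markers that were low together in replicate 2 are shown with that of Wnt2, 3 of them with a match to the motif below and Kdr without one. RefSeq entries (GRCm38.p6) were matched for 7 of the 10 genes and the 250 bases before the start site were read, 5′ to 3′ on the strand of the gene, which is the minus strand for all 5 printed here. Capitals mark matches to AGGAAG, a core of ETS factor sites, on either strand. The windows are chr10:87007943-87008192 for Stab2, chr14:31168642-31168891 for Stab1, chr8:3720652-3720901 for Clec4g, chr5:75978456-75978705 for Kdr and chr6:18030446-18030695 for Wnt2.
Stab2: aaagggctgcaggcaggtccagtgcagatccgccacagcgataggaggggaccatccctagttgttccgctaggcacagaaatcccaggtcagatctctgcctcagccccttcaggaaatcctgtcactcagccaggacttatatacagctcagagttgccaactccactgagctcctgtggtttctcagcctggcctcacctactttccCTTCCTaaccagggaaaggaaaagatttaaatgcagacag
Stab1: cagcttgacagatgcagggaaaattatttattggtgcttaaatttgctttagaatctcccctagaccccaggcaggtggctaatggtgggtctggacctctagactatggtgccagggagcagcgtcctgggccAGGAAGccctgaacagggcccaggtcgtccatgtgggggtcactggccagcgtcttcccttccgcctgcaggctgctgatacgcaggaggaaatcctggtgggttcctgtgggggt
Clec4g: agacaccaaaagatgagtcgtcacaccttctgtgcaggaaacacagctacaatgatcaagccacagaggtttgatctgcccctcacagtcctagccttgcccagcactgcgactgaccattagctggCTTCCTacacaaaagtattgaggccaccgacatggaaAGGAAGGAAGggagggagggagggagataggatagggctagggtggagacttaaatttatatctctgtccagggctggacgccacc
Kdr: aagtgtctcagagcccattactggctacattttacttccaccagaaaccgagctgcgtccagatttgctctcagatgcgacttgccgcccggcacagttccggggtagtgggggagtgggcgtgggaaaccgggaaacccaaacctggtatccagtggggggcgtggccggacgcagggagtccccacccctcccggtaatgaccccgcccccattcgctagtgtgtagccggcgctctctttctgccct
Wnt2: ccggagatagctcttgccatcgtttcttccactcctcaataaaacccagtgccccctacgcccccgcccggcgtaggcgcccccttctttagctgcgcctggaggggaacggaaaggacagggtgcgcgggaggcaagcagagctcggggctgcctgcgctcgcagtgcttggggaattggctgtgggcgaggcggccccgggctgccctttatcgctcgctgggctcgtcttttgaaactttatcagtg
AGGAAG or its reverse complement lay in 4 of the 7 windows (Stab2, Stab1, Clec4g and Aqp1, not Kdr, Wnt2 or Wnt9b), and in 29.2% of 27025 promoter windows of the same length. Clec4g held 3 matches, of which 2 overlap. The GATA core AGATAA and the TCF/LEF core CTTTGA, searched on both strands, were in none of the 7, against 10.3% and 14.1% of all windows. A match or its lack describes these letters in this window only.

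Counting without strand could add reads of a neighbour. Exons of Stab1 overlap those of Nt5dc2 on the opposite strand, and the use of strand by the gene counter is not given in the sources used here. Nt5dc2 had 64, 618 and 472 reads in libraries labelled Axin2-positive 1, 2 and 3, and 59, 117 and 65 in those labelled Axin2-negative, an order unlike that of Stab1. Stab2, Clec4g and Rspo3 overlap exons of predicted antisense transcripts that have no row in the count table.

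The niche ligands were close to the limit of detection. Wnt2, a canonical Wnt ligand of sinusoidal and central vein endothelium (chromosome 6, 17988940 to 18030585), had 21, 1 and 70 reads in libraries labelled Axin2-positive 1, 2 and 3, and 24, 0 and 48 in those labelled Axin2-negative. In CPM these levels were 0.348 ± 0.417 in libraries labelled Axin2-positive and 0.266 ± 0.274 in those labelled Axin2-negative (SD, n = 3 each). Both libraries of replicate 3 held more Wnt2 than those of replicate 1, and replicate 2 held 1 read in all. A count of 0 in the library labelled Axin2-negative 2 allows up to 3 reads as a 1-sided 95% limit, or 0.0395 CPM of its unscaled total. Leaving out the library labelled Axin2-positive 3 turned the log2 fold change of Wnt2 to -1.19, leaving out Axin2-negative 2 gave -0.20, and leaving out Axin2-negative 3 gave 1.45, all at an edgeR adjusted p of at least 0.986.

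Wnt9b, a ligand gene of central vein endothelium (chromosome 11, 103727364 to 103749821), had 6, 2 and 13 reads in libraries labelled Axin2-positive 1, 2 and 3, and 6, 0 and 6 in those labelled Axin2-negative. Rspo3, which amplifies Wnt signalling through Lgr receptors (chromosome 10, 29452416 to 29535867), had 1, 0 and 2 reads against 7, 0 and 1. Neither passed the filter on low counts, so neither was tested in the main fit. The edgeR fit with no filter took in all 10 members and called 0 higher and 0 lower, as it did among all 17275 genes. In replicate 3 the fold of Wnt9b was 2.21 with a counting interval of 0.784 to 7.09, and in replicate 1 that of Rspo3 was 0.141 with an interval of 0.00312 to 1.09, and both intervals hold 1. At this depth no difference in Wnt9b or Rspo3 between the fractions was detectable. Together the 3 ligands gave 28, 3 and 85 reads in libraries labelled Axin2-positive 1, 2 and 3, and 37, 0 and 55 in those labelled Axin2-negative.

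Set against Stab2 of the same library, Wnt2 differed between the 2 libraries of replicate 3, which is 1 pair with no replicate check. There were 52.6 Wnt2 reads per 1000 Stab2 reads in the library labelled Axin2-positive 3 (exact 95% interval 40.7 to 66.9) and 26.2 in the library labelled Axin2-negative 3 (19.2 to 34.9), and the intervals did not meet. In replicate 1 the ratio was 12.2 (7.53 to 18.7) in the library labelled Axin2-positive and 15.6 (9.97 to 23.3) in the one labelled Axin2-negative, with overlapping intervals. In replicate 2 the ratio rests on 80 and 221 Stab2 reads with 1 and 0 reads of Wnt2, and shows no order. Counting intervals can also part in a nearly even pair. In replicate 1, Gata4 per 1000 Stab2 reads stood at 1167 (1093 to 1245) in the library labelled Axin2-positive. It stood at 1336 (1250 to 1428) in the one labelled Axin2-negative, and these intervals did not meet either. Within replicate 3 the direct fold of Wnt2 was 1.49 (1.02 to 2.195), while those of the 6 endothelial markers lay from 0.674 to 0.772.

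Of the 23 Wnt and R-spondin ligand genes, 14 had a row in the count table and 6 were tested, of which edgeR called 0. Their median log2 fold change was -0.19, against -0.005 for all tested genes, and it was -0.12 without both libraries of replicate 1 with the block. It turned to 0.049 without the library labelled Axin2-positive 2, and to 0.13 without both libraries of replicate 2 and no block. Wnt5b, a ligand of β-catenin-independent signalling, was the most abundant with 356, 206 and 278 reads in libraries labelled Axin2-positive 1, 2 and 3, and 308, 412 and 318 in those labelled Axin2-negative (log2 fold change -0.33, SE 0.24, edgeR adjusted p = 0.999). Wnt5a had 220, 47 and 79 reads against 201, 30 and 37, with replicate 1 highest in both fractions. Wnt9a had 89, 14 and 28 reads against 54, 50 and 49, Wnt4 had 22, 18 and 26 against 27, 25 and 18, and Wnt2b had 12, 6 and 23 against 18, 18 and 15. These 5 ligands kept reads in replicate 2, unlike Wnt2. Wnt1, Wnt6, Wnt7a, Wnt8a, Wnt10a, Wnt11, Wnt16, Rspo2 and Rspo4 had no row, and the listed ligands not named here had at most 2 reads in any library.

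Genes of ligand release and feedback split in the same way. Wls, the carrier that every secreted Wnt needs, had 19, 0 and 22 reads in libraries labelled Axin2-positive 1, 2 and 3, and 21, 0 and 38 in those labelled Axin2-negative, a profile with replicate 2 at 0 as in Wnt2. Porcn, which acylates Wnts, had 421, 132 and 358 reads against 423, 254 and 432. Notum, a secreted Wnt deacylase and Wnt target, had 2629, 4295 and 4628 reads against 2884, 3110 and 3745 (log2 fold change 0.28, SE 0.29, edgeR adjusted p = 0.999). Vegfa, the ligand of Kdr that hepatocytes make, had 11604 to 22196 reads in libraries labelled Axin2-positive and 15239 to 22018 in those labelled Axin2-negative (log2 fold change -0.18, SE 0.20, edgeR adjusted p = 0.999), and replicate 2, where Kdr had 8 and 43 reads, held 11604 and 15239 of Vegfa.

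A wider list of 48 endothelial genes showed the pattern of the markers. Of its 44 tested genes edgeR called 0 higher and 0 lower, with 0 at an unadjusted p under 0.05, and their median log2 fold change was -0.31, against -0.005 for all tested genes. With the block 0 were called, with a median of -0.46, and without both libraries of replicate 1 as well 0 were called, with a median of -0.69. That last fit had 12 of the 44 lower and 1 higher at an unadjusted edgeR p under 0.05, against 1720 lower and 1636 higher of 12385 genes. Pair medians (log2 difference, positive over negative) were 0.003, -0.90 and -0.51 in replicates 1, 2 and 3, and 20, 38 and 36 of the 44 genes lay below 0. Of all 12343 tested genes, 6148, 6252 and 6228 did so. The median turned to 0.22 without the library labelled Axin2-positive 2 and to 0.34 without Axin2-negative 3. Lyve1, a hyaluronan receptor gene, had 92, 0 and 75 reads in libraries labelled Axin2-positive 1, 2 and 3, and 73, 1 and 111 in those labelled Axin2-negative. Lyve1, Cdh5, Oit3 and Ptprb are named here after their values were seen. Cdh5, which encodes the endothelial cadherin, had 250, 0 and 225 reads against 256, 14 and 455. Oit3 had 360, 10 and 363 against 359, 36 and 554, and Ptprb, an endothelial phosphatase gene, had 1067, 6 and 953 against 1007, 42 and 1151.

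A gene was counted as low in replicate 2 with both of its libraries lying under 0.25 times the CPM of each of the other 4. This held for 337 of 12343 tested genes (2.73%), for 7 of the 8 tested members (87.5%), Gata4 being the exception, and for 34 of the 44 endothelial genes (77.3%). It is a description of how these libraries differ, with no test, since sex and index go together. Listed genes outside it included the 3 most abundant. Ctsl, a lysosomal protease gene used by many cell types, had 39847 to 62870 reads in libraries labelled Axin2-positive and 44611 to 61749 in those labelled Axin2-negative, and Clec2d had 5078 to 6576 against 4503 to 7888. Cd36, a fatty acid receptor gene that hepatocytes also express, had 743, 1669 and 3262 reads in libraries labelled Axin2-positive 1, 2 and 3, and 811, 81 and 1173 in those labelled Axin2-negative (log2 fold change 1.54, SE 0.96, edgeR adjusted p = 0.999). Tie1, an orphan receptor gene of endothelium, kept 230, 73 and 149 reads against 226, 261 and 244 (log2 fold change -0.74, SE 0.37, edgeR adjusted p = 0.999). Without Ctsl and Clec2d, the other 46 endothelial genes summed to 129, 29.9 and 164 CPM in libraries labelled Axin2-positive 1, 2 and 3, and to 132, 25.2 and 204 CPM in those labelled Axin2-negative, with Cd36 holding most of the replicate 2 sum in the library labelled Axin2-positive. In that library 21 of the 46 were at 0 reads.

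**Figure D3:**
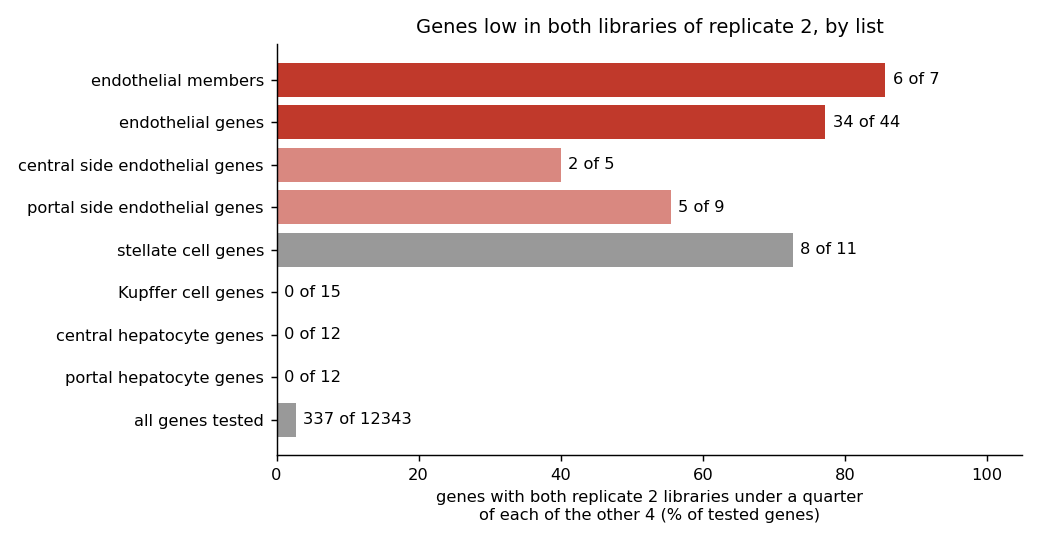
Share of tested genes in each list (horizontal axis, percent) whose CPM in both libraries of replicate 2 was under 0.25 times that of each of the other 4 libraries, with counts beside the bars. Endothelial (77.3%) and stellate lists (72.7%) stand far above all tested genes (2.73%), while no tested gene of the Kupffer or hepatocyte lists meets it.

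Markers of other cell types in the same libraries differed in this respect. Of 11 tested stellate cell genes 8 met the same criterion, and the stellate list summed to 16.8, 3.38 and 15.9 CPM in libraries labelled Axin2-positive 1, 2 and 3, and to 17.2, 3.88 and 18.3 CPM in those labelled Axin2-negative. Sparc, a matrix protein gene shared by stellate and endothelial cells, had 432, 2 and 238 reads against 457, 14 and 274, and the collagen gene Col1a1 was at 0 in 5 libraries. Of 15 tested Kupffer cell genes 0 met it. The Kupffer list summed to 133 to 234 CPM in libraries labelled Axin2-positive and to 212 to 245 CPM in those labelled Axin2-negative, with pair medians of 0.005, -1.51 and -2.01. Clec4f, a Kupffer cell lectin gene, had 102, 8 and 107 reads in libraries labelled Axin2-positive 1, 2 and 3, and 87, 91 and 636 in those labelled Axin2-negative. In replicate 3 the fold of Clec4f was 0.172 (0.138 to 0.211), further from 1 than that of any of the 6 endothelial markers. Clec4f is named after its values were seen. Central hepatocyte genes (median log2 fold change 2.06) and portal hepatocyte genes (-1.07) had 0 of 12 tested genes low in replicate 2 in each list. Over 6 libraries edgeR called 0 genes of these 2 lists and 0 Kupffer cell genes. Without both libraries of replicate 1 and with the block it called 12 of 12 central hepatocyte genes higher (median 2.37) and 11 of 12 portal hepatocyte genes lower (median -3.11). That fit also called 9 of 15 Kupffer cell genes lower (median -2.27), 1 of 5 bile duct genes higher and 2 of 5 lower, but 0 of 11 stellate cell genes. Over all 12385 genes it called 3.43% higher and 4.01% lower. That fit rests on the pairs of replicates 2 and 3 alone. The matching blocked fits without both libraries of replicate 2 (12602 genes) or of replicate 3 (12431 genes) called 0 genes higher and 0 lower. Without the library labelled Axin2-positive 1 alone and no block, the portal hepatocyte median was -2.97. Bile duct genes summed to 47.3 to 76.0 CPM and to 40.3 to 103 CPM, with the duct keratin gene Krt7 at 0 in 4 libraries and Krt19 at 0 in 3. The blood cell list summed to 16.5 to 191 CPM and to 15.9 to 200 CPM, nearly all of it Alas2, whose highest counts (15082 and 16054 reads) were in replicate 2. The part of these other cell types in the endothelial values was not tested.

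Endothelial genes of the 2 ends of the sinusoid were then set side by side. The list held 7 genes known mainly from the central end and 10 known mainly from the portal or arterial end, next to the 3 niche ligands. It was split in this way after values of its genes had been seen, so the contrast below describes these values and is no test. In replicate 3, which is 1 pair of libraries, all 9 tested portal side genes were lower in the library labelled Axin2-positive. So were 36 of the 44 genes of the wider endothelial list and 6228 of all 12343 tested genes. The portal side median log2 difference was -1.39, and 6 of 9 were past a fold of 2, against 4.99% of all tested genes. Of the 5 tested central side genes 1 was lower there, with a median of 0.21 and 0 past a fold of 2. In replicate 1 the medians were 0.25 for the portal side and -0.10 for the central side, with 0 genes past a fold of 2 in either list. In replicate 2 most of these genes had too few reads for an order. Over 6 libraries edgeR called 0 of the 9 and 0 of the 5, with 0 at an unadjusted p under 0.05 in either list. Their median log2 fold changes were -0.51 for the portal side and 0.33 for the central side.

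Among portal side genes, Dll4, a Notch ligand gene, had 52, 0 and 12 reads in libraries labelled Axin2-positive 1, 2 and 3, and 51, 3 and 46 in those labelled Axin2-negative. Its fold in replicate 3 was 0.266 (0.128 to 0.510). Ltbp4, which binds latent TGF-β, had 413, 0 and 214 reads against 352, 1 and 580, with a fold in replicate 3 of 0.376 (0.320 to 0.441). The netrin gene Ntn4 had 57, 4 and 25 reads against 41, 4 and 82, with a fold in replicate 3 of 0.311 (0.190 to 0.492). Efnb2, the arterial ephrin gene, Msr1, a scavenger receptor gene, and Adam23 had folds in replicate 3 of 0.295 (0.194 to 0.438), 0.319 (0.234 to 0.428) and 0.430 (0.326 to 0.563), and are named here after their values were seen. Efnb1 and Jag1, the most abundant of the list with Ltbp4, stood at 0.983 (0.887 to 1.09) and 0.929 (0.721 to 1.20). Both of these intervals held 1.

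Among central side genes, Kit, a receptor tyrosine kinase gene, had 12, 0 and 137 reads in libraries labelled Axin2-positive 1, 2 and 3, and 13, 6 and 101 in those labelled Axin2-negative. Its fold in replicate 3 was 1.38 (1.06 to 1.81). Fabp4, a fatty acid binding protein gene, had 37, 5 and 44 reads against 30, 0 and 29, with a fold in replicate 3 of 1.55 (0.947 to 2.56). Selp and Lhx6 were near even in replicate 3, at 1.13 (0.858 to 1.48) and 1.16 (0.881 to 1.54), and had 115 and 563 reads in the library labelled Axin2-positive 2, against 129 and 317 in Axin2-negative 2. Of the 5 tested central side genes, 2 were low in replicate 2 by the criterion above. Relative to Stab2, Kit stood at 103 reads per 1000 Stab2 reads in the library labelled Axin2-positive 3 (85.7 to 123) and at 55.1 in the library labelled Axin2-negative 3 (44.7 to 67.4). Dll4 went the other way, at 9.02 (4.65 to 15.8) in the library labelled Axin2-positive 3 and 25.1 (18.3 to 33.6) in the library labelled Axin2-negative 3. In replicate 1 Dll4 stood at 30.2 (22.5 to 39.8) in the library labelled Axin2-positive and 33.2 (24.6 to 43.9) in the one labelled Axin2-negative, and the intervals overlapped. These orders rest on 1 pair of libraries and have no replicate check.

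**Figure D4:**
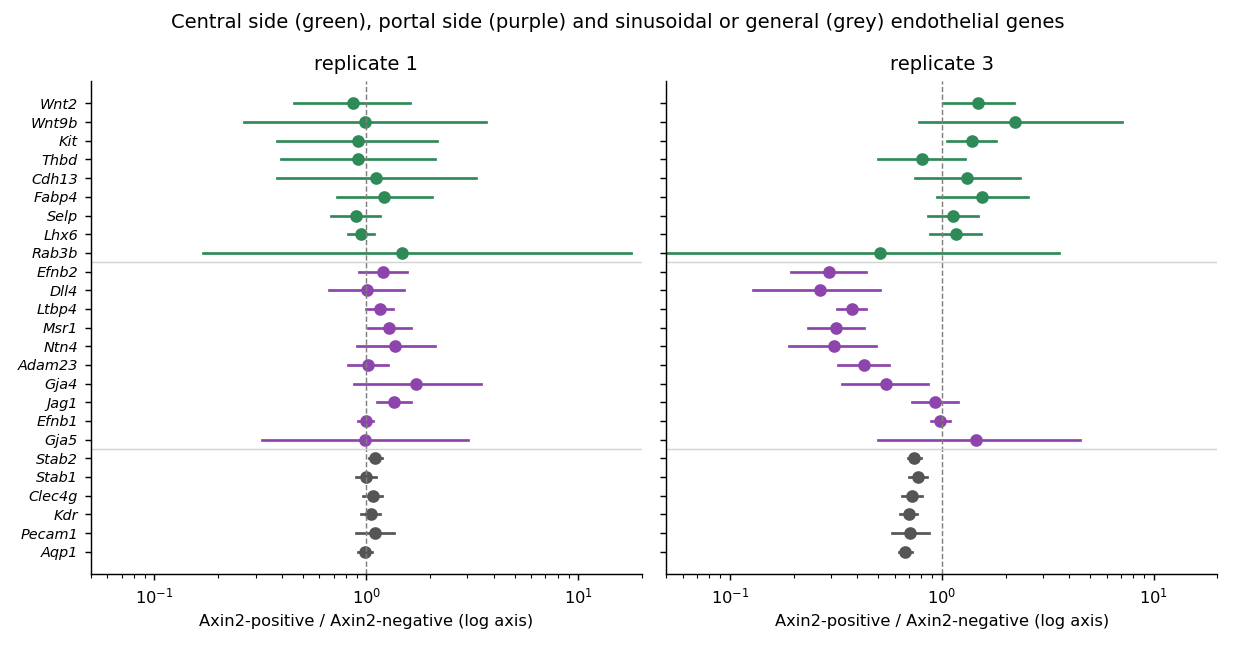
Fold of CPM in the library labelled Axin2-positive over its Axin2-negative partner (horizontal log axes) in replicates 1 and 3, for central side genes with Wnt2 and Wnt9b (green), portal side genes (purple) and 6 sinusoidal or general endothelial markers (grey). Bars are exact 95% counting intervals, drawn to the axis limits. In replicate 3 Dll4, Efnb2, Ltbp4, Msr1, Ntn4 and Adam23 lie at 0.266 to 0.430, the grey markers at 0.674 to 0.772 and Wnt2 and Kit at 1.49 and 1.38, while in replicate 1 most intervals hold 1.

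**Figure D5:**
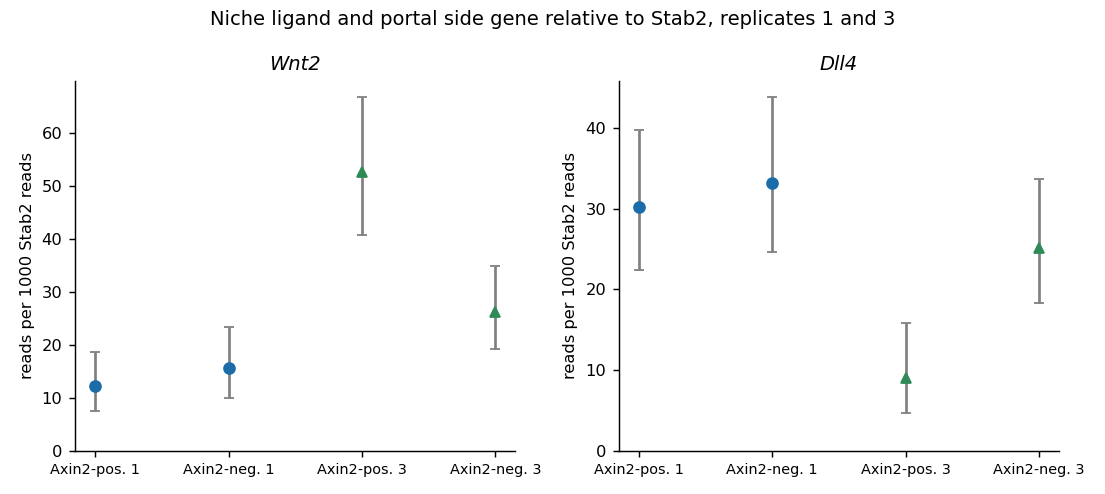
Reads of Wnt2 (left) and Dll4 (right) per 1000 Stab2 reads in the libraries of replicates 1 and 3, with exact 95% counting intervals. In replicate 3 the ratio of Wnt2 is 52.6 in the library labelled Axin2-positive and 26.2 in the one labelled Axin2-negative, and that of Dll4 is 9.02 and 25.1, while in replicate 1 the intervals overlap for both genes.

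Levels were compared between genes as RPKM, the CPM divided by the merged exon length in kilobases. Gata4, whose cells of origin were not tested, stood highest. Its level was 4.61 ± 1.38 RPKM in libraries labelled Axin2-positive and 4.58 ± 1.67 in those labelled Axin2-negative (SD, n = 3 each). Aqp1 followed at 3.71 ± 3.21 and 4.81 ± 4.30 RPKM, Clec4g at 1.91 ± 1.65 and 2.23 ± 1.86, Stab2 at 1.39 ± 1.10 and 1.61 ± 1.14, and Kdr at 0.977 ± 0.835 and 1.20 ± 1.06. Stab1 was at 0.641 ± 0.503 and 0.756 ± 0.579 RPKM, Pecam1 at 0.326 ± 0.266 and 0.374 ± 0.335, and Wnt2 at 0.154 ± 0.185 and 0.118 ± 0.121. Wnt9b (0.0176 ± 0.0143 and 0.00967 ± 0.00840) and Rspo3 (0.00362 ± 0.00378 and 0.00914 ± 0.0128) were lowest. The spread of each gene was about as large as its mean, except for Gata4. Gata4 lay above Aqp1 in 4 of 6 libraries, Clec4g above Stab2 in 4, Kdr above Stab1 in 4 and Wnt9b above Rspo3 in 4, so none of these orders held throughout. The exceptions were both libraries of replicate 3 for Gata4 and both of replicate 2 for Clec4g and Kdr. For Wnt9b they were the libraries labelled Axin2-negative 1 and Axin2-negative 2, the latter with 0 reads of either gene. The steps from Aqp1 to Clec4g, Stab2 to Kdr, Stab1 to Pecam1 and Pecam1 to Wnt2 held in 6 of 6 libraries, and that from Wnt2 to Wnt9b in 5 of 6.

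The authors' deposited table, with 1 FPKM value per group, called none of these genes. The share of all transcripts called there was not counted here, so the lack of a call cannot be weighed. In the authors' deposited table Stab2 was at 1.27 FPKM for Axin2+ and 1.36 for Axin2- (q = 0.9995), Clec4g at 3.98 and 4.56, and Kdr at 1.05 and 1.15. Wnt2 was at 0.213 and 0.156 FPKM, Wnt9b at 0.0298 and 0.0175 and Rspo3 at 0.0113 and 0.00921 in the authors' deposited table, where none of the 3 ligands was tested.

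The profile of each gene over the 6 libraries was compared by the root mean square difference of centred log2 CPM. An offset of 0.05 CPM was added, and 0 means the same profile. From Stab2, Stab1 differed by 0.18, Pecam1 by 0.67, Wnt2 by 0.79, Kdr by 0.80, Clec4g by 0.97, Aqp1 by 1.07 and Gata4 by 1.84. The place of Wnt2 in this order depends on the offset, as it had 1 and 0 reads in replicate 2. Without an offset, the mean CPM of replicates 1 and 3 over that of replicate 2 was 72.2 for Wnt2, 29.9 for Kdr and 9.32 for Stab2. Outside the members, the 3 genes nearest to Stab2 were Gatm (0.18), Tmsb4x (0.20) and Arrb1 (0.20), out of 12335. Tmsb4x, the thymosin gene abundant in non-parenchymal cells, had 244, 8 and 164 reads in libraries labelled Axin2-positive 1, 2 and 3, and 238, 25 and 346 in those labelled Axin2-negative. Nearest to the mean profile of the tested members were Plekhg1 (0.14), Rgl1 (0.14), Ushbp1 (0.15), Gatm (0.18) and Lrrc32 (0.20), of which Ushbp1 is in the endothelial list. Of the 100 genes nearest to Stab2, 14 were among the 58 tested genes of the endothelial lists. The nearest genes named here share the low reads of replicate 2.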

How the data were processed

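The 3 libraries labelled Axin2-positive and the 3 labelled Axin2-negative were prepared with a strand-specific mRNA kit, per the labels' protocols. Per gene, the table deposited by the authors holds raw read counts as whole numbers. Alignment to mm10 used TopHat2 2.0.11, as the submitters' processing notes have it. Which counter, annotation and strand setting were used is not given in the sources used here. A second table deposited by the authors gives each transcript 1 FPKM for each group, with q-values and p-values beside them. The submitters' processing notes name Cuffdiff 2.2.2. Dates stand in place of 23 gene symbols, and those rows were kept.

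Counts were filtered (edgeR's default expression filter), scaled by TMM and tested over 12343 genes with edgeR 4.0.16 in R 4.3.3. The test was the quasi-likelihood F test (group only, Benjamini-Hochberg adjustment, threshold 0.05). Its code was run on simulated counts with the same dispersion for all genes and no replicate effect. These libraries differ from that setting, so the check does not measure how the fit performs on them. Pair differences and profiles used an offset of 0.05 CPM. RPKM used merged exons of GENCODE M21 (GRCm38). Over 12343 genes, deviations from group means had correlations of 0.68, 0.82 and 0.75 in same-index pairs (pairs of other numbers, -0.61 to 0.14), so the index was taken as pairing them. No 2 libraries agreed within sampling noise. Alternatives were DESeq2 1.42.0, limma-voom (limma 3.58.1), other scalings, no filter, the replicate block and leaving out libraries. Members and lists were chosen with earlier results of these data known. Named genes were the members, checks, the 3 most abundant and 2 lowest-p genes per list, ligands with at least 3 reads and nearest profiles. Stellate, bile duct, blood and ligand modifier lists were counted in the same way.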

Additional observations from a re-analysis of the deposited data

How the results depend on the processing

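The 8 tested members had 136 values under alternatives, of which 114 kept the direction and 22 turned it, and 0 were called under any. Turned log2 fold changes were 0.071 for Pecam1 with limma-voom, -0.0070 and -0.0099 for Gata4 with upper-quartile scaling and with library totals only, and -0.033 for Gata4 and 0.28 for Pecam1 without both libraries of replicate 3 and with the replicate block. Leaving out 1 library at a time gave ranges of -0.70 to 0.33 for Stab2, -0.74 to 0.34 for Stab1, -0.92 to 0.43 for Aqp1, -0.26 to 0.23 for Gata4, -0.77 to 0.54 for Pecam1, -0.84 to 0.48 for Kdr, -0.77 to 0.37 for Clec4g and -1.19 to 1.45 for Wnt2. The cause was not tested. With the replicate block, in which libraries of the same index are paired, 0 genes were called over 6 libraries and the log2 fold change of Stab2 was -0.50. Without both libraries of replicate 1, with the block, edgeR called 425 genes higher and 497 lower, none of them members or endothelial genes, with 3.43% and 4.01% of 12385 genes called. The blocked fits without both libraries of replicate 2 or of replicate 3 called 0 genes. Counts over all genes when 1 library was left out ran from 0 to 1 higher and 0 to 5 lower, the highest without the library labelled Axin2-positive 1. Without both libraries of replicate 2 and no block, an alternative added after seeing the data, 0 genes were called and the endothelial median was -0.28. An offset of 0.5 CPM in place of 0.05 turned no pair difference of a member, but in replicate 2 it moved the log2 difference of Aqp1 to -1.18 from -2.59, of Kdr to -0.78 from -1.95 and of Clec4g to -0.64 from -2.13. Depth limits Wnt9b and Rspo3, with at most 13 reads in a library.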
